A study of Bos taurus with 14 samples.

Results

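ISG15 and USP18, a protein modifier and the enzyme that takes it off again, were followed over 4 groups of bovine cells on 14 one-colour Agilent microarrays. Each gene was read by 1 probe, fixed by its name on the array design and not by its values, so that 2 of 15208 non-control probes are described in full. Of those probes, 6115 could be paired with a gene symbol (5885 distinct symbols). Bovine endometrial stromal cells (BES), the connective tissue cells of the uterine lining, were cultured in vitro for 2 h with phosphate-buffered saline (PBS, 3 samples) or with interferon tau (IFNT, 3 samples). Granulocytes, the neutrophil-rich white cells of the blood, were incubated for 2 h with PBS (4 samples) or with IFNT (4 samples), and the labels call that experiment both in vivo and in vitro. IFNT is the type I interferon with which the ruminant conceptus signals pregnancy, and the labels give its dose as 1 mg/mL in both cell types, a high figure whose unit could not be checked. The labels name no animals, ages or culture batches, so errors and p-values cover the sample-to-sample spread only, part of which may be technical.

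ISG15 is a ubiquitin-like protein that cells make in quantity after type I interferon. An activating enzyme (UBA7), a conjugating enzyme (UBE2L6) and ligases such as HERC5 or HERC6 attach it to other proteins, and USP18 cleaves it off. USP18 has another role that does not need its protease activity: it binds the IFNAR2 chain of the interferon receptor and damps signalling, so that it is both a product and a brake of the pathway. In ruminants ISG15 is a well-known marker of early pregnancy in the endometrium and in blood leukocytes.

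Each result rests on a single oligonucleotide per gene, 60 bases long like all 15208 probes. The probe of USP18 is shown 5′ to 3′ as the array design lists it, with capitals marking the longest run of bases that it shares with any other probe of the array on either strand.

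USP18 probe A_73_101460: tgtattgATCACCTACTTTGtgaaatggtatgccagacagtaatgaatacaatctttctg

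That run is 13 bases, at bases 8 to 20, and matches a probe with no gene symbol. G and C make up 35% of the USP18 probe, against a median of 43.3% over all probes. The files list no genome build and no transcript position for either probe, so neither is placed in an exon or untranslated region here. USP18 carries an older gene name (bubp43) in the files and was matched through its transcript accession.

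ISG15 was weakly expressed in BES without IFNT and very strongly with it. The processed signal, a background-corrected fluorescence intensity, was 227, 144 and 177 in the 3 PBS samples, which is 4.62 to 6.74 times the local background. With IFNT it was 63901, 64566 and 58524. On the log2 scale relative to each array's 75th percentile of signal, used for every level from here on, the PBS samples were at -3.80, -4.15 and -4.13 and the IFNT samples at 4.48, 4.38 and 4.32. The groups lay far apart: the smallest difference between any IFNT and any PBS sample was 8.12, while samples of 1 group spanned at most 0.35. A lack of overlap between the groups, with a gap of any size, was found for 12.5% of the probes tested in BES as higher and for 21.1% as lower with IFNT. The rise was 8.42 ± 0.10 (SE, n = 3 against 3, 95% confidence interval 8.17 to 8.67), or 342-fold (287 to 407), with an adjusted p of 4.47e-07 in limma. Of the 11309 probes tested in BES, 3.66% passed the adjusted threshold of 0.05, 2.29% as higher and 1.37% as lower with IFNT. The number called, 414, ran from 149 to 1011 over the alternatives, and the share of calls that were higher, 62.6%, was 47.5% after normexp background correction, 42.7% with an intensity trend and robust prior and 86.6% with array row as a covariate. ISG15 had the highest rise of the 10725 probes whose signal was well above background on every BES array, and 1 probe of all those tested, with no such signal under PBS, rose more.

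USP18 rose in BES as well, by less than ISG15. Its signal was 528, 464 and 491 with PBS and 10226, 9344 and 8717 with IFNT. The log2 levels were -2.59, -2.47 and -2.65 with PBS and 1.84, 1.59 and 1.57 with IFNT, and the groups did not overlap. The rise was 4.23 ± 0.09 (SE, n = 3 against 3, interval 4.02 to 4.45), or 18.8-fold (16.2 to 21.8), with an adjusted p of 2.01e-06 in limma. It stood seventh in size among the probes well above background on all 6 arrays, and 14 probes of all those tested rose more. The probe level of one gene says nothing of the amount of another gene's RNA, so the levels of ISG15 and USP18 are not set against each other.

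The BES samples were not spread evenly over the slide: PBS 1 and PBS 2 lay in array row 1, and PBS 3 lay in array row 2 with the 3 IFNT samples. Within array row 2, against PBS 3 alone and with the spread of the IFNT samples taken to hold for it, the rise was 8.52 for ISG15 and 4.32 for USP18, with adjusted p of 7.36e-04 and 3.31e-03 in limma. The number of probes past the threshold in BES depended on single samples more than these genes did. It was 414 with all samples, fell to between 183 and 215 without PBS 1, PBS 2 or any 1 of the IFNT samples, and was 534 without PBS 3.

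**Figure D1:**
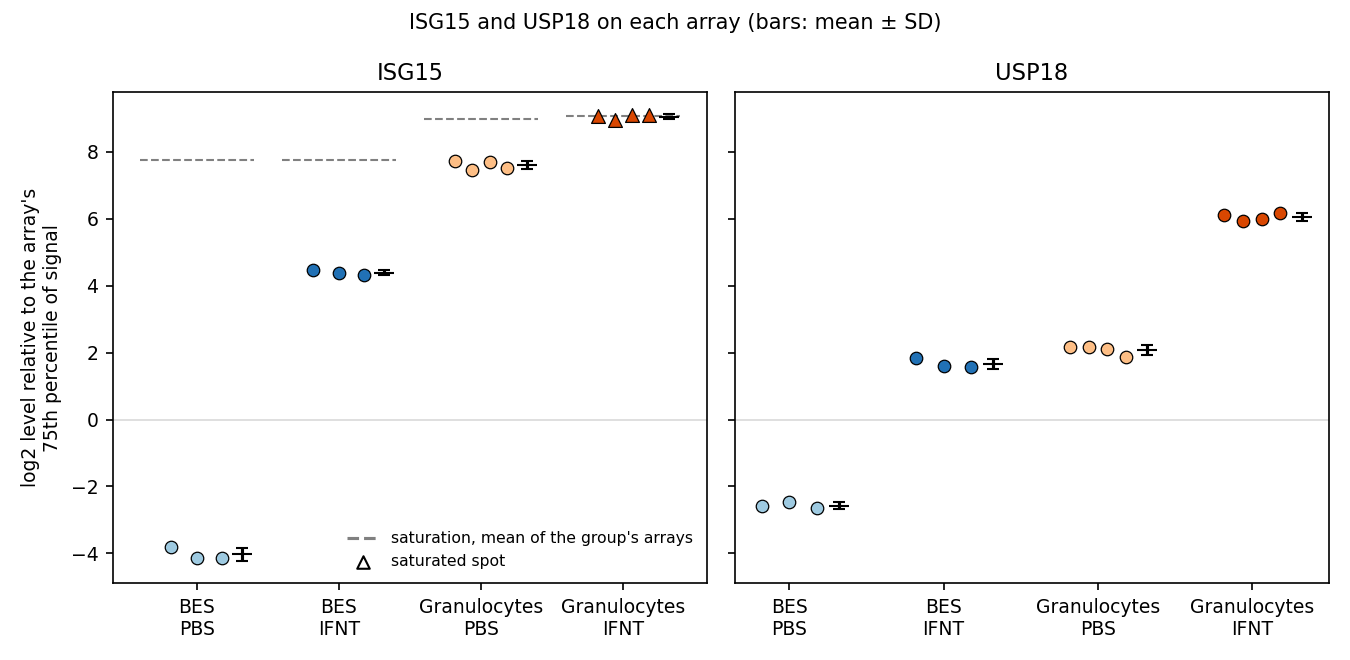
The log2 level of ISG15 (left) and USP18 (right) on each of the 14 arrays, relative to the array's 75th percentile of signal, with the mean ± SD of each group beside its points. Triangles are saturated spots and dashed lines the level at which a spot saturates; all 4 ISG15 spots of IFNT-treated granulocytes lie on that line, whereas every USP18 spot can be read.

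In granulocytes ISG15 was already near the top of the scanner's range without IFNT. Its signal was 213264, 259247, 249837 and 275257 in the 4 PBS samples, or 33.0% to 42.7% of the value at which the scanner saturates. The PBS log2 levels were 7.72, 7.46, 7.69 and 7.53, so that a rise of more than 2.34-fold to 3.03-fold could not have been read on these arrays. With IFNT the signal was 638760, 644023, 643835 and 641768, and the scanner software marked all 4 spots as saturated. The saturated pixels numbered 34 of 59, 55 of 55, 51 of 51 and 37 of 52 in the 4 samples. The IFNT log2 levels of 9.06, 8.96, 9.09 and 9.10 are therefore the instrument's upper limit and not the amount of RNA.

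On the scaled levels used here, ISG15 was at least 2.74-fold higher with IFNT in granulocytes. The log2 bound was 1.26 at the lowest over the alternatives. The PBS and IFNT samples did not overlap, and the measured difference of 1.45 ± 0.07 (SE, n = 4 against 4) had an adjusted p of 6.73e-07 in limma. As a lower bound it carries no upper end and no rank among the genes.

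USP18 could be read in all 4 granulocyte samples of each group. Its signal was 4559, 6547, 5214 and 5423 with PBS and 82357, 78852, 74898 and 84665 with IFNT, the latter at 11.6% to 13.2% of saturation. The log2 levels were 2.18, 2.15, 2.10 and 1.86 with PBS and 6.10, 5.93, 5.99 and 6.18 with IFNT, again without overlap, as for 16.8% of the probes tested in granulocytes as higher (26.8% as lower). The rise was 3.98 ± 0.09 (SE, n = 4 against 4, interval 3.78 to 4.17), or 15.7-fold (13.7 to 18.0), with an adjusted p of 5.89e-09 in limma. In granulocytes 44.6% of the 10379 probes tested passed the threshold, 17.2% as higher and 27.4% as lower, so passing the test was common in that cell type. USP18 stood eighth in size of rise among the 9699 probes well above background on all 8 arrays, and 11 probes of all those tested rose more.

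All granulocyte PBS samples lay in array row 1 and all IFNT samples in array row 2, so array row and treatment cannot be told apart in that cell type. Markers of cell types also moved with IFNT in granulocytes. Of the 8 granulocyte markers measured, 3 rose and 2 fell, beside 44.6% of all probes called, with FCGR3A, a low-affinity receptor for antibody, at 1.34 and the gelatinase MMP9 at -0.56. Of 3 monocyte and macrophage markers, CD14 (1.03) and C1QB (0.47) rose and CD68 fell (-0.36), while the summed level of the list was 27.9 to 30.4 times the 75th percentile with PBS and 26.1 to 27.0 times with IFNT. The stromal collagen COL1A1 gave the highest marker shift, a rise of 1.42 (adjusted p = 5.02e-06 in limma). NKG7, of cytotoxic lymphocytes, rose by 0.93, the eosinophil marker CCR3 fell by 1.34 and the erythroid marker EPB42 fell by 0.96. The part of these shifts in the ISG15 and USP18 results was not tested, and in bulk samples fewer cells of a type and less RNA per cell cannot be told apart.

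**Figure D2:**
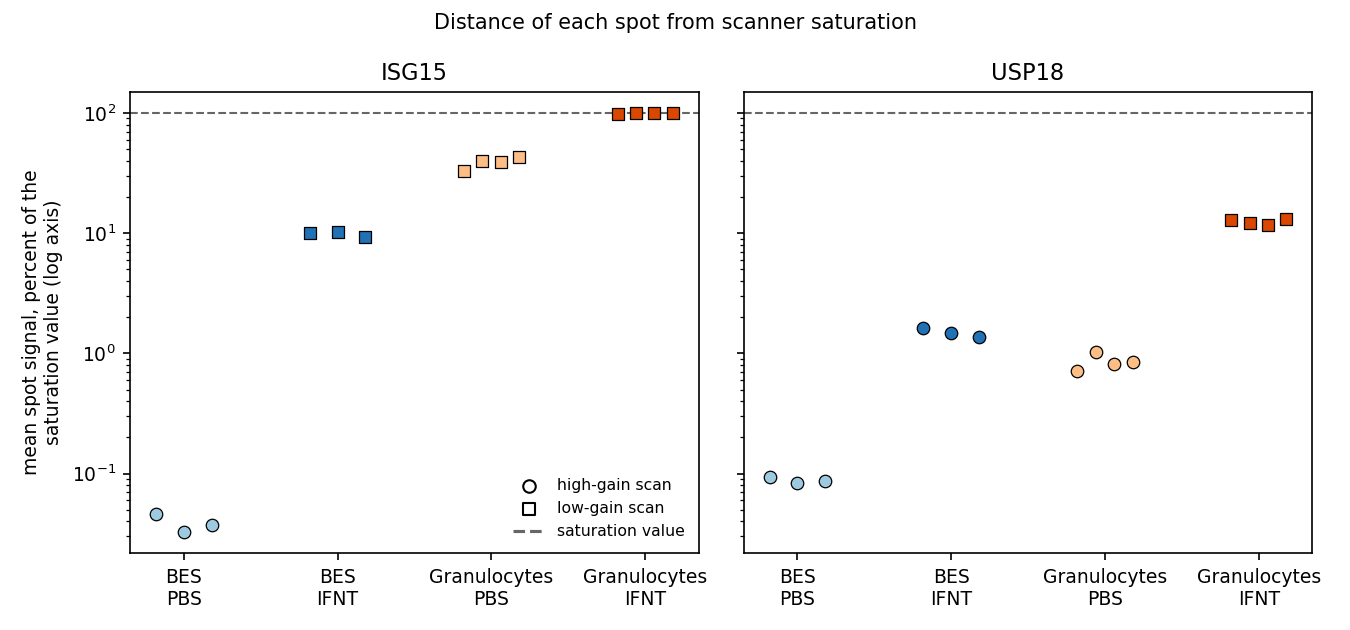
The mean pixel signal of the ISG15 spot (left) and the USP18 spot (right) on each array, as a percent of that array's saturation value on a log axis. Squares were read from the scanner's low-gain pass and circles from its high-gain pass; ISG15 sits at 9.22% to 10.2% in BES with IFNT, at 33.0% to 42.7% in granulocytes with PBS and at saturation in granulocytes with IFNT.

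The scanner read each slide at a high and a low gain and substituted the low-gain reading for bright spots. ISG15 was taken from the low-gain reading in all 3 IFNT samples of BES and in all 8 granulocyte samples, and from the high-gain reading in the 3 PBS samples of BES. USP18 came from the low-gain reading only in the 4 IFNT samples of granulocytes. The BES change of ISG15 and the granulocyte change of USP18 thus each span both readings. Among the comparisons of cell types below, so do the difference between the IFNT responses of each gene and the ISG15 difference between untreated cells. The USP18 differences between treated granulocytes and either BES group span both readings too. The part of this switch in the size of these values was not tested.

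The IFNT response of USP18 was compared directly between the cell types. It was 4.23 in BES and 3.98 in granulocytes, a difference of -0.26 ± 0.13 (SE, interval -0.55 to 0.03, adjusted p = 0.189 in limma) over the 14 arrays. The test did not pass, and its interval allows a response from 0.55 smaller to 0.03 larger in granulocytes. The difference was -0.75 with an adjusted p of 1.19e-03 after quantile normalization, the only alternative tried that moved it past the threshold. Over all 12046 probes tested for a difference of responses, 26.5% passed.

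For ISG15 the same contrast has only a lower limit. The measured difference was -6.97 ± 0.13 (SE, adjusted p = 8.47e-12 in limma), computed with the saturated granulocyte spots at their recorded values. It is the lowest value that those spots allow, and neither its true size nor its direction follows from it.

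Before treatment both genes were far higher in granulocytes than in BES. With PBS, ISG15 differed by 11.63 (interval 11.43 to 11.82) and USP18 by 4.64 (4.44 to 4.85), or 25.0-fold for USP18, and the adjusted p values in limma were 1.12e-17 and 4.15e-14. Between the cell types 91.7% of probes passed under PBS and 92.2% under IFNT, so a pass there is what most probes showed. With IFNT, USP18 was still 4.38 (4.18 to 4.59) higher in granulocytes. ISG15 was at least 25.3-fold (4.66) higher there on the scaled levels used here. That bound depends on the scaling and was 3.36 at the lowest over the alternatives. Between treated granulocytes and untreated BES, where 91.8% of probes passed, USP18 differed by 8.62 (8.41 to 8.82). Every BES array lay on 1 slide and every granulocyte array on another, so cell type and slide cannot be told apart in these differences.

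The order of the group means was the same for both genes: BES with PBS, BES with IFNT, granulocytes with PBS, granulocytes with IFNT. For ISG15 the steps were wide, from -4.03 ± 0.19 (SD, n = 3) to 4.39 ± 0.08 (n = 3), then 7.60 ± 0.12 (n = 4) and a saturated 9.05 ± 0.06 (n = 4). Untreated granulocytes were 3.21 (3.01 to 3.41), or 9.24-fold, above treated BES, and 2.10 above at the lowest over the alternatives. For USP18 the means were -2.57 ± 0.09 (SD, n = 3), 1.66 ± 0.15 (n = 3), 2.07 ± 0.14 (n = 4) and 6.05 ± 0.11 (n = 4). Its middle neighbours nearly met: untreated granulocytes were 0.41 ± 0.09 (SE, interval 0.20 to 0.62, adjusted p = 1.21e-03 in limma) above treated BES, and the closest 2 samples of these groups differed by 0.03. That step was 0.11 with an adjusted p of 0.265 after quantile normalization, and the unscaled signals ran the other way, at 8717 to 10226 in treated BES and 4559 to 6547 in untreated granulocytes. USP18 in resting granulocytes and in stimulated stromal cells therefore has no order that holds both with and without scaling.

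Likeness to each gene was measured as the root mean square difference of log2 values over the 14 arrays after each probe's own mean was subtracted, so that 0 would be an identical pattern. It was computed for 5128 probes that had a symbol and were well above background on at least 3 arrays, and is a description across samples that share slide and treatment. The patterns closest to ISG15 were those of OAS1X (0.61), MX1 (0.73), IFIT3 (1.25), GBP5 (1.81) and OAS2 (1.85), against a median of 4.99 over the probes compared. MX1, an antiviral GTPase, was at -4.64 ± 0.15 and 2.23 ± 0.06 in BES (SD, n = 3 each) and at 4.99 ± 0.09 and 7.40 ± 0.05 in granulocytes (SD, n = 4 each), without and with IFNT. OAS1X, GBP5 and OAS2 were not well above background on any BES PBS array, so their place in this ranking rests in part on values not clearly above background. The saturated spots enter the measure at their recorded values.

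Closest to USP18 were RIGI (0.65), RSAD2 (0.74), RTP4 (0.98), IFIT5 (1.01) and TNFSF13B (1.02), with a median of 3.15. TNFSF13B was not well above background on any BES PBS array, so its place too rests in part on such values. RIGI, a sensor of viral RNA, was at -2.84 ± 0.07 and 1.07 ± 0.09 in BES and at 2.84 ± 0.08 and 5.22 ± 0.10 in granulocytes. ISG15 and USP18 differed from each other by 2.46 on this measure, with the saturated ISG15 spots at their recorded values. Over the 6 BES arrays alone they differed by 2.10.

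Over the 6 BES arrays alone, where no ISG15 spot was saturated, OAS1X (0.47), MX1 (0.77), RSAD2 (1.17), RTP4 (1.39) and XAF1 (1.64) were nearest to ISG15. The genes nearest to USP18 there were RIGI (0.18), DHX58 (0.31), GBP5 (0.37), IFIT3 (0.40) and XAF1 (0.51). With PBS, OAS1X and GBP5 were well above background on none of these arrays and XAF1 on 2 of 3. Their distances thus rest in part on values not clearly above background, and their ranks are not firm. RSAD2, the antiviral protein viperin, rose by 6.10 ± 0.17 in BES and by 4.70 ± 0.10 in granulocytes, and RTP4, a receptor transport protein, by 5.64 ± 0.08 and 4.87 ± 0.04 (SE). XAF1, a partner of the apoptosis inhibitor XIAP, rose by 5.14 ± 0.15 and by 0.56 ± 0.04, and was already at 6.13 in granulocytes with PBS.

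**Figure D3:**
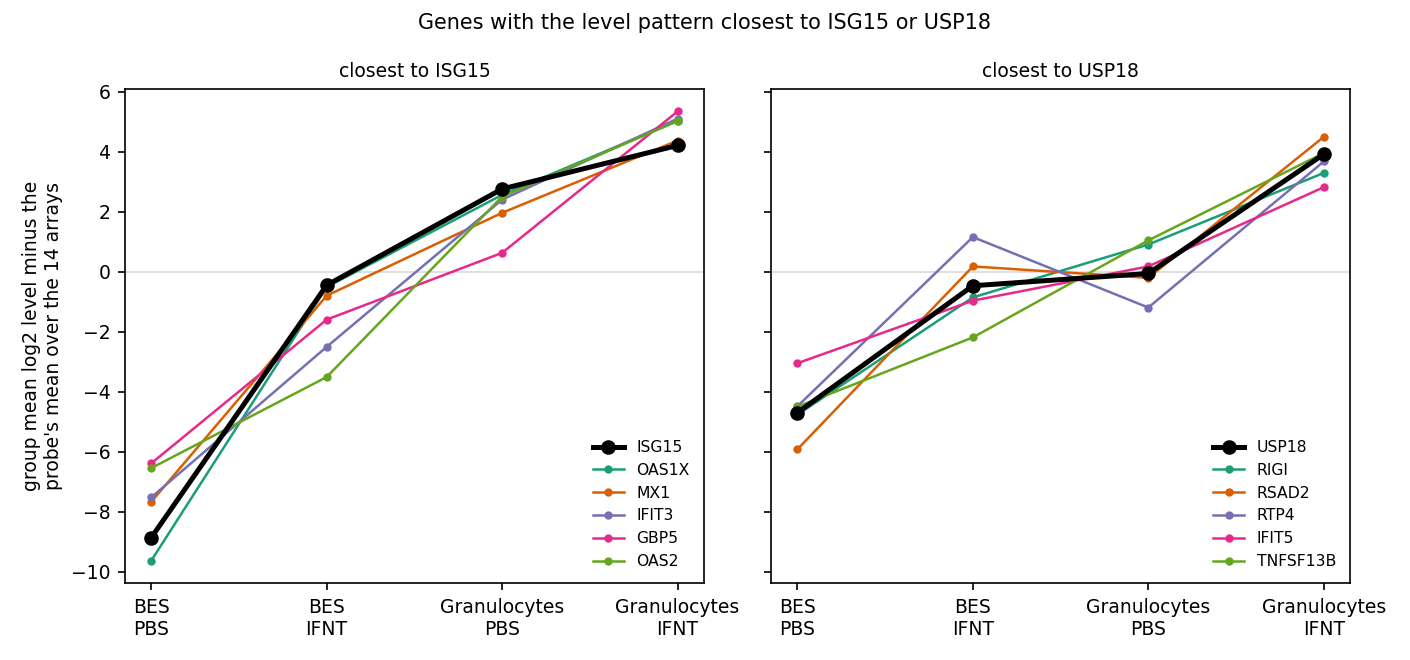
Group means of ISG15 (left) and USP18 (right, both thick black) and of the 5 genes with the closest pattern to each, as log2 level minus the probe's mean over the 14 arrays. MX1 and OAS1X follow ISG15 with root mean square differences of 0.73 and 0.61; RIGI and RSAD2 follow USP18 at 0.65 and 0.74.

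The enzymes that attach ISG15 were covered in part. Of 8 genes listed for ISG15 conjugation, 3 had a named probe: ISG15, USP18 and UBA7, the activating enzyme, which the files list under its former symbol UBE1L. The conjugating enzyme UBE2L6 and the ligases HERC5, HERC6, TRIM25 and ARIH1 were not analysed here. In BES the level of UBA7 was -0.97, -0.80 and -1.04 with PBS and -0.97, -0.70 and -1.16 with IFNT. The samples overlapped fully and the difference was -0.0029 ± 0.13 (SE, n = 3 against 3, interval -0.31 to 0.30, adjusted p = 0.993 in limma).

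In granulocytes UBA7 was at -0.45, -0.55, -0.79 and -0.33 with PBS and at 1.58, 1.74, 1.26 and 1.62 with IFNT, without overlap. The rise was 2.08 ± 0.13 (SE, n = 4 against 4, adjusted p = 2.81e-06 in limma). The granulocyte response exceeded the BES response by 2.08 ± 0.20 (SE, adjusted p = 8.92e-06). Without treatment UBA7 was 0.41 higher in granulocytes, a small step beside those of ISG15 and USP18. The 3 measured genes of the conjugation cycle thus all rose in granulocytes, with ISG15 as a bound, beside 17.2% of all probes tested there. In BES at 2 h ISG15 and USP18 rose, beside 2.29% of all probes, and UBA7 did not pass the test. Apart from ISG15 and USP18 themselves, UBA7 was the only gene of the cycle measured.

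The receptor that USP18 acts on and the transcription factor downstream of it had 4 of 8 listed genes on the array. IRF9, a subunit of the factor that drives interferon-stimulated genes, rose in both cell types. The rise was 2.89 ± 0.05 in BES and 1.03 ± 0.05 in granulocytes (SE, adjusted p = 1.24e-06 and 1.12e-06 in limma). Its response was smaller in granulocytes, with a difference of -1.86 ± 0.08 (granulocytes minus BES, adjusted p = 6.35e-09). IRF9 was at 5.64 ± 0.07 in untreated granulocytes and at -0.33 ± 0.06 in untreated BES.

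IFNAR2, the receptor chain to which USP18 binds, fell in granulocytes and not in BES. Its granulocyte level was 6.81, 6.77, 6.78 and 6.77 with PBS and 6.27, 6.36, 6.42 and 6.35 with IFNT, a fall of 0.43 with no overlap (SE 0.05, adjusted p = 1.01e-04 in limma). In BES it was at -0.37, -0.35 and -0.30 with PBS and at -0.11, -0.17 and -0.18 with IFNT, a difference of 0.19 ± 0.05 (SE, adjusted p = 0.0753) that missed the threshold although the samples did not overlap. The responses differed by -0.63 ± 0.06 (granulocytes minus BES, adjusted p = 1.18e-05). IFNAR1, the other chain, was at 0.01 ± 0.06 in BES and -0.22 ± 0.13 in granulocytes and passed in neither. Over the 4 genes the median change was 0.78 in BES and 0.41 in granulocytes, beside -0.02 and -0.05 over all probes tested.

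Proteins known to be modified by ISG15 formed a list of 19 genes, of which 10 were measured. In BES 7 of the 10 rose and none fell, with a median of 0.99. Of all probes tested there, 3.66% were called, 2.29% as higher, with a median of -0.02. With 1 sample left out, 5 to 6 genes of the list were called in BES. In granulocytes 7 rose and 2 fell, with a median of 1.87, beside 44.6% called and a median of -0.05. MX1 rose by 6.87 ± 0.08 in BES and by 2.41 ± 0.06 in granulocytes, IFIT3 by 5.02 ± 0.10 and 2.70 ± 0.06, and RIGI by 3.91 ± 0.06 and 2.39 ± 0.06 (SE). These 3 genes responded more in BES: the granulocyte response minus the BES response was -4.47 for MX1, -2.32 for IFIT3 and -1.52 for RIGI (adjusted p of at most 2.45e-07 in limma). Over the 10 measured targets this difference passed as higher for 3 and as lower for 4, beside 26.5% of all probes called. Its median over the 10 was 0.0002. IRF3, a transcription factor that induces interferon, gave 0.61 ± 0.11 in BES and 2.56 ± 0.09 in granulocytes, and the antiviral kinase EIF2AK2 gave 1.91 ± 0.09 and 1.93 ± 0.06; both were singled out after their values were seen.

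The target list also held genes outside the antiviral response. BECN1, which starts autophagy, was at 0.11 ± 0.06 in BES and fell by 0.47 (SE 0.05, adjusted p = 1.72e-04 in limma) in granulocytes. PLCG1, a phospholipase, passed in neither cell type.

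**Figure D4:**
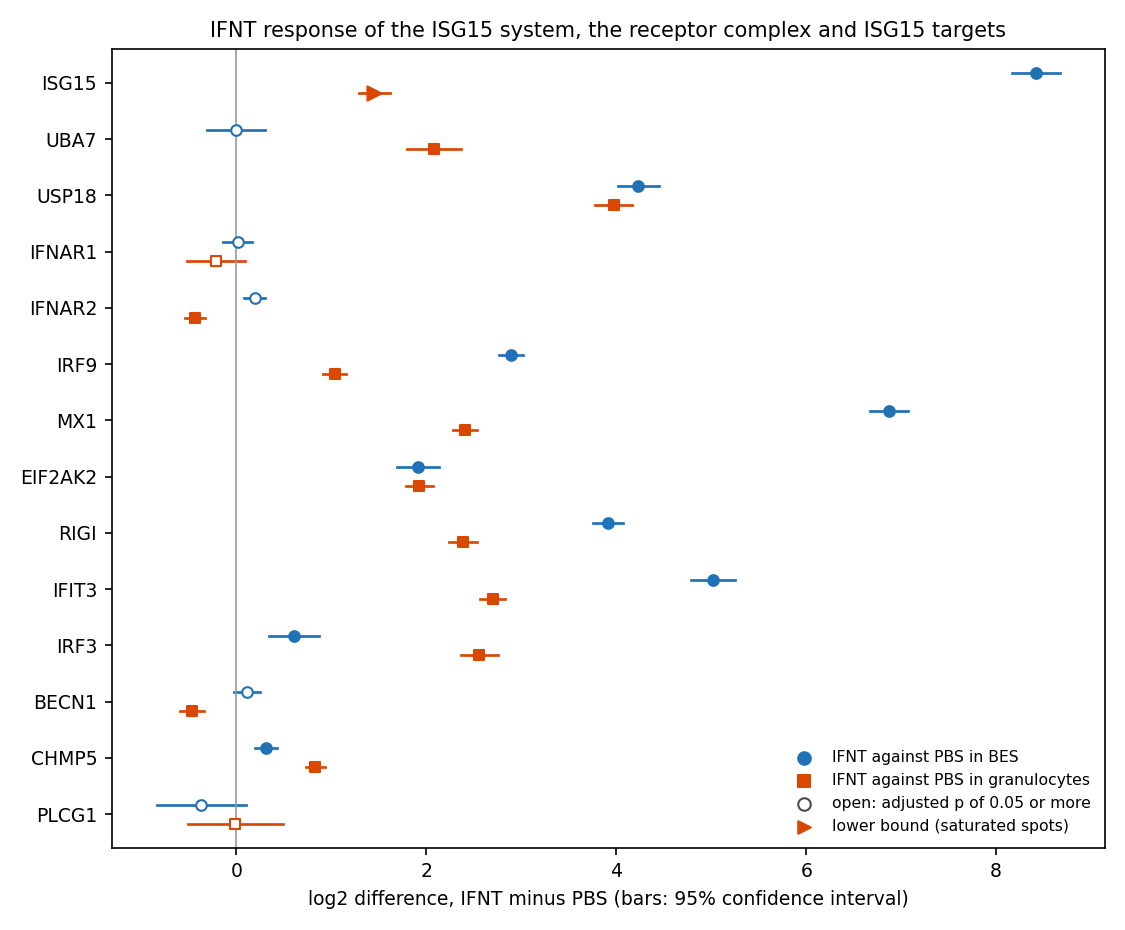
Log2 difference between IFNT and PBS, with its 95% confidence interval, for genes of the ISG15 cycle (top 3), the receptor and its transcription factor (IFNAR1 to IRF9) and ISG15 targets, in BES (blue circles) and granulocytes (orange squares). Filled symbols passed an adjusted p of 0.05. USP18 lies at about 4 in both cell types, UBA7 at 0 and 2.08, and the ISG15 arrow of granulocytes is a lower bound.

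Relatives of ISG15 were measured as well. Of 16 measured ubiquitin and ubiquitin-like genes (21 listed), none rose in BES and 1 fell, UBL4A by 0.41, a call that was lost without any 1 of 5 of the 6 samples (all but PBS 1). In granulocytes 1 of the 16 rose and 7 fell, with a median of -0.17 beside -0.05 for all probes and 44.6% of all probes called; 5 were called without PBS 2. The falls were small: UBL5, a ubiquitin-like protein that acts in splicing, fell by 0.36, MAP1LC3B, a ubiquitin-like protein of autophagy, by 0.31, and UFM1, a modifier of ribosomal proteins, by 0.27. GABARAPL1 rose by 0.48 with overlapping samples and lost its call without PBS 2, 3 or 4 or IFNT 1 or 2. UBB and RPS27A, which encode ubiquitin itself, passed in neither cell type: UBB was at -0.11 in BES and -0.01 in granulocytes, and RPS27A at 0.10 and 0.05.

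Among 9 activating enzymes of ubiquitin and its relatives, UBA1 and UBA7 had probes. UBA1, the enzyme of ubiquitin, fell by 0.44 in BES, lost that call without any 1 of 5 of the 6 samples (all but PBS 3), and was at -0.17 ± 0.21 (SE) in granulocytes.

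Of 9 measured ubiquitin-specific proteases (50 listed, with CYLD), USP18 was the only one past the threshold in BES, beside 3.66% of all probes. The other 8 had a median of 0.01, and USP37 was at 1.11 ± 0.27 (SE, adjusted p = 0.0777 in limma), from a level not well above background on 1 of the 3 PBS arrays. In granulocytes USP18 and USP37 (0.86 ± 0.15) rose, whereas USP15 (by 0.64), USP16 (by 0.39), CYLD (by 0.30) and USP50 (by 0.15) fell. The 2 that rose and the 4 that fell stand beside 17.2% and 27.4% of all probes. USP15 deubiquitinates several signalling proteins and CYLD restrains NF-kappaB signalling. USP15 was at -2.24, -2.38, -2.29 and -2.24 with PBS and at -2.93, -2.91, -2.90 and -2.98 with IFNT, and its response differed from that in BES by -0.99 ± 0.16 (adjusted p = 5.31e-04 in limma). The USP50 call was lost without any 1 of 7 of the 8 samples (all but PBS 1).

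**Figure D5:**
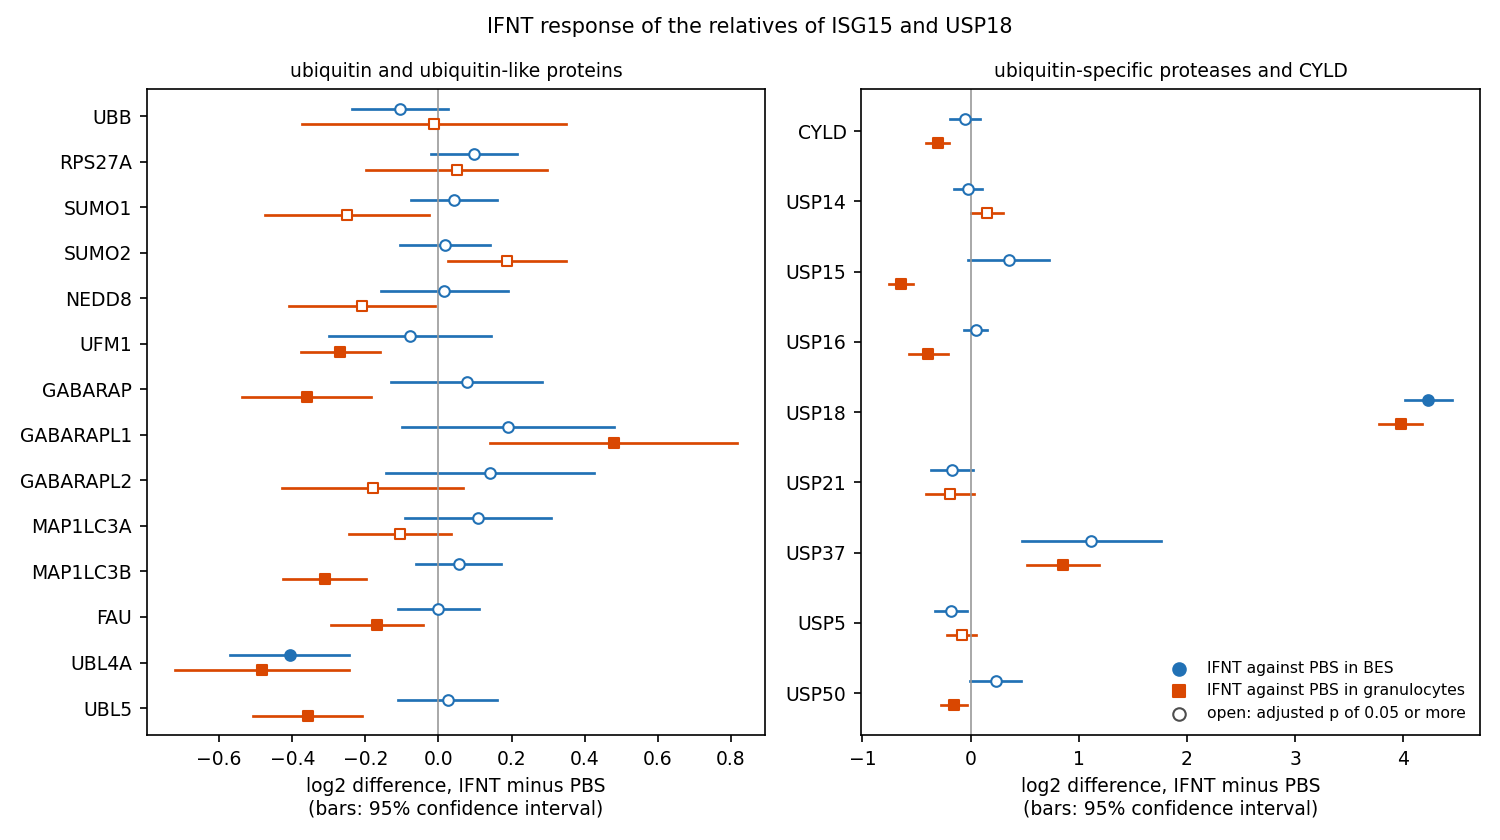
Log2 difference between IFNT and PBS, with its 95% confidence interval, for ubiquitin and ubiquitin-like genes (left) and ubiquitin-specific proteases with CYLD (right), in BES (blue circles) and granulocytes (orange squares). The left panel spans less than 1 either way, and in the right panel USP18, at 4.23 and 3.98, lies farthest from 0.

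Free ISG15 outside the cell has been reported to bind LFA-1, the integrin of ITGAL and ITGB2. ITGB2 was at 5.99 ± 0.07 and 5.96 ± 0.06 in granulocytes (SD, n = 4 each, PBS and IFNT) and at -0.53 ± 0.11 and -0.68 ± 0.09 in BES (SD, n = 3 each). ITGAL was tested in granulocytes alone, at -1.92 ± 0.19 and -1.99 ± 0.15. Neither chain passed the test of IFNT in a cell type where it was tested.

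The samples carried the defining markers of their labelled cells. All 7 stromal markers with a probe were well above background on every BES array, and all 8 granulocyte markers on every granulocyte array, with CXCR1, ITGAM and FCGR3A on none of the BES arrays. KRT19 and CDH1, epithelial genes, were also well above background in BES, whereas EPCAM and the 3 endothelial markers were not. The epithelial signal in BES was high. The log2 level of the summed epithelial list was 6.11 to 6.26 with PBS and 6.02 to 6.15 with IFNT. That of the stromal list in BES was 7.14 to 7.17 and 7.24 to 7.27. In granulocytes the epithelial list was at 2.07 to 2.52 and 1.94 to 2.49. Whether the BES samples held epithelial cells was not tested. In granulocytes all measured monocyte, B, eosinophil, epithelial (KRT19, EPCAM and CDH1) and platelet and erythroid (ALAS2 and EPB42) markers were well above background on every array, as were CD3E, CD3D and CD2 of T cells, 3 of the 7 stromal markers and the endothelial gene PECAM1. Between 71.6% and 76.1% of probes on the BES arrays, and between 66.4% and 70.9% on the granulocyte arrays, exceeded background clearly, and arrays of the same group correlated at 0.991 to 0.996 across probes.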

How the data were processed

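Cy3 intensity was taken from the deposited scanner files, made by the authors with Agilent Feature Extraction 9.5 per the submitters' processing notes. Their processed signal is an intensity already corrected for background and spatial trend, per the file headers. The authors' deposited value table holds log2 values; each column was the log2 processed signal minus 1 constant per array, with medians of -3.42 to -3.23 and no centring of probes. Why those constants were chosen is not stated in the sources used here.

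Processed signals were taken to log2, each array's 75th percentile over non-control probes was subtracted, and outlier spots were left out. Probes well above background on at least 3 BES or 4 granulocyte arrays entered linear models in limma 3.58.1 under R 4.3.3 (two-sided tests, Benjamini-Hochberg over all probes tested, threshold 0.05). Each cell type was fitted alone for IFNT against PBS; all 14 arrays were fitted together for differences between cell types. The fits were tested on simulated data. Symbols came from the bovine RefSeq gene table. A gene with several probes was represented by the one with the highest mean level. The number of arrays limits the precision.

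The named genes were ISG15 and USP18, all measured members of the conjugation, receptor and LFA-1 lists, up to 3 members per direction and cell type of the other lists by smallest unadjusted p, and the 5 nearest patterns. Some genes that this rule selects, and the sequence of the ISG15 probe, are not reported here, though counts and medians of lists include all measured members. The members and lists were chosen with earlier results of these data known. Alternatives covered background correction, scaling, filter, moderation, signal column, array row, the replicate block and each sample left out.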

Additional observations from a re-analysis of the deposited data

Results flagged for a closer look

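Several values stood out by rules applied to the genes named here. In 1 of 60 group values tested, a sample lay far from the others: USP14, a proteasome-bound protease, was at -0.67 in granulocyte PBS sample 4 against -0.47 in the nearest sample, a gap of 0.842 of the group's range. Chance alone gives such a gap in about 1 of 20 groups.

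The response to IFNT differed between granulocytes and BES in 13 of the 28 named genes tested (adjusted p under 0.05 in limma), ISG15 left out, beside 26.5% of all probes. Many of these genes were named for a small p within a cell type, so their share cannot be weighed against that of all probes. ISG15 gave -6.97, a lower limit set by saturated spots, so its direction is not known and its p is not read. Among the 28, the response was larger in granulocytes for UBA7 (2.08). Responses were lower in granulocytes for MX1 (-4.47), IFIT3 (-2.32), IRF9 (-1.86), RIGI (-1.52), USP15 (-0.99), IFNAR2 (-0.63), BECN1 (-0.58), USP16 (-0.44), UBL5 (-0.38), USP50 (-0.38), MAP1LC3B (-0.37) and CYLD (-0.25). Other genes mentioned in the text were not among the 28. Of those, IRF3 (1.95) and IFIT5 (0.56) passed with a larger response in granulocytes. OAS1X (-6.66), XAF1 (-4.58), RSAD2 (-1.40) and RTP4 (-0.77) passed with a lower one.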

How the results depend on the processing

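Of 316 values of ISG15 and USP18 under the alternatives, 314 kept their direction and their side of the threshold. Both exceptions came with quantile normalization and concern USP18: the difference of responses was -0.75 and passed, and untreated granulocytes against treated BES was 0.11 and did not. In BES, ISG15 ranged from 7.97 to 8.93 and USP18 from 4.08 to 4.38 over 13 alternatives. The number of probes called in BES, 414, was 189 with no filter on dim probes, 1011 with an intensity trend and robust prior, 149 with array row as a covariate and 165 within array row 2, and 183 to 534 with 1 sample left out. Normexp background correction turned the BES split from 62.6% to 47.5% higher. The 1 ubiquitin-like call in BES became 0 with no filter, with the replicate block, with all 14 arrays in 1 fit, with array row as a covariate and within array row 2, and 0 to 1 with a sample left out. The 1 activating enzyme call became 0 in the same alternatives except the replicate block, and 0 to 1 with a sample left out. The 1 protease call in BES became 2 with the trend and robust prior and with all arrays in 1 fit. The 8 ubiquitin-like calls in granulocytes became 5 with no filter and 5 to 7 with a sample left out. With the replicate number as a block, ISG15 and USP18 kept their values in BES (8.42 and 4.23, adjusted p = 3.11e-05 and 2.31e-04 in limma) and 318 probes were called; the numbers do not pair the samples, whose deviations correlated at 0.01 to 0.03 in BES and at -0.08 to 0.12 in granulocytes. Of 1071 values of other named genes, 1014 kept direction and side, 49 lost the call, 8 gained one and 0 turned. Scaling moved the median of all probes between untreated granulocytes and BES from 0.03 to -0.23 (quantile) and -0.12 (median); it was 0.50 with normexp and 0.71 with no filter. Saturation limits the reading of ISG15 in IFNT-treated granulocytes.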

Other observations

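Genes next to ISG15 and USP18 on the chromosome were looked up by gene order in the RefSeq table of the bovine assembly, after the main values were seen. Of the 4 nearest genes on each side of ISG15, only C16H1orf159 had a named probe, at 0.01 ± 0.05 in BES and 0.01 ± 0.05 in granulocytes (SE). Near USP18, ALG10, a glycosyltransferase, was at 0.05 ± 0.13 in BES and CYTH4, an exchange factor for small GTPases, at -0.09 in BES and 0.10 in granulocytes. None of these neighbours passed the adjusted threshold in limma in a cell type where it was tested.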
